A study of Mus musculus with 6 samples.

Results

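The growth hormone (GH), prolactin and insulin-like growth factor (IGF) axis of the pregnant liver was followed in 10 genes. They were taken by name from the 56691 genes of the deposited table, and all 10 passed the expression minimum, a mean FPKM of at least 1, that 10866 genes passed. They are the receptors *Ghr* and *Prlr*, the relay gene *Stat5b*, the feedback genes *Socs2* and *Cish*, the secreted products *Igf1* and *Igfals*, and the binding proteins *Igfbp1*, *Igfbp2* and *Igfbp4*. FPKM is the number of reads on a gene scaled by the length of its exons and by the counted reads of the library.

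Liver RNA came from 3 KPF dams and 3 WPF dams. KPF dams were hChrebp-KO mice, *Chrebp* flox/flox females that carried Cre recombinase under the albumin promoter (Alb-Cre), so that the gene is deleted in hepatocytes while other liver cells keep it. WPF dams are labelled WT, and the study's methods describe them as *Chrebp* flox/flox females without Cre. All 6 dams were on a C57BL/6J background, were mated with *Chrebp* flox/flox males on Day 0, and ate a high-fructose diet (HFrD, 70% fructose and 10 kcal% fat) until the livers were taken on Day 17. The age of the dams is not given in the sources used here, and there is no chow group or group of virgin females in this comparison. The question put to these genes was whether their transcripts differ between the livers with and without hepatocyte ChREBP, a transcription factor that responds to sugar.

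GH from the pituitary and the lactogens of pituitary and placenta bind GHR and PRLR on hepatocytes, which signal through the kinase JAK2 and the transcription factor STAT5. STAT5 drives transcription of *Igf1*, *Igfals* and of *Socs2* and *Cish*, whose products then brake the receptor. IGF1 circulates bound to IGF-binding proteins, and 2 of these made by the liver, IGFBP1 and IGFBP2, are known to be higher in fasting and lower after insulin, while the pregnant liver is a target of both GH and the placental lactogens.

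Short sequence motifs were searched in the promoters of the genes, because STAT5, insulin and ChREBP are each known to act through such letters. RefSeq promoters of build GRCm38.p6 (300 bases, of which 250 lie before and 50 after the start site) matched 9 of the 10 genes with 16 promoters, and 7 of these held at least 1 of the motifs. The motifs were TTCNNNGAA, which STAT5 binds, CACGTG, the E-box from which the ChREBP element is built, and CAAAACA, the insulin response element, each searched on both strands and without overlap among them. Of the 32851 promoters in the table, 8.3% held TTCNNNGAA, 7.15% held CACGTG and 6.28% held CAAAACA. The promoters of *Igfbp1* (chr11:7197537-7197836, plus strand), *Igfbp2* (chr1:72824230-72824529, plus strand) and *Cish* (chr9:107296409-107296708, plus strand) are shown because the first 2 belong to the genes called lower in KPF and the last to the classical STAT5 target of the group. Capitals mark the motif.
Igfbp1: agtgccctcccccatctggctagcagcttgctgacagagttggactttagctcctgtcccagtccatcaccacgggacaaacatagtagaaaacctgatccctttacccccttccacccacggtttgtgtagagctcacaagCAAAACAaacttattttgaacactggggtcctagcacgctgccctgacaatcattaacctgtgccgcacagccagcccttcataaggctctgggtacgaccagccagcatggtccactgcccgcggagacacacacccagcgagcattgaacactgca
Igfbp2: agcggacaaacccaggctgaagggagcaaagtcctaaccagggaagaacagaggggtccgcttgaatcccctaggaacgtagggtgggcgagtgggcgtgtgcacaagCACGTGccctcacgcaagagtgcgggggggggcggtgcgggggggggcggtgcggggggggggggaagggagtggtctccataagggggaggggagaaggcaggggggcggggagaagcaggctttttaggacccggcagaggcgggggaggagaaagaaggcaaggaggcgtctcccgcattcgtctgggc
Cish: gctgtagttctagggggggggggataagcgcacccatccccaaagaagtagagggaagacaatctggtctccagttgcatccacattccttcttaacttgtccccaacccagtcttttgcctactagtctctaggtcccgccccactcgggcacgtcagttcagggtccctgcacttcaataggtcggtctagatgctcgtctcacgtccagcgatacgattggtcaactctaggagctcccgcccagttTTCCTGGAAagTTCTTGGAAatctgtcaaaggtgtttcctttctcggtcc
CAAAACA began 108 bases before the start site of *Igfbp1*. CACGTG began 142 bases before the start site of *Igfbp2*. *Cish* held TTCNNNGAA at its start site (TTCCTGGAA) and again 11 bases after it (TTCTTGGAA). *Igfals* held it in 2 of its 3 promoters, beginning 236 bases before the start in promoter 1 and 58 bases before it in promoter 2, and *Prlr* held it 110 bases before the start in promoter 2. Promoter 3 of *Prlr* held CAAAACA on the complementary strand, 37 bases after the start site. A match gives letters only, and no binding was measured.

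The libraries held between 10694496 and 14496630 counted reads, and the 3 smallest were those of KPF. *Mlxipl*, the gene of ChREBP, was at 32.8, 128 and 155 normalized FPKM in KPF replicates 1, 2 and 3 and at 176, 231 and 161 in WPF replicates 2, 3 and 4 (log2 fold change -0.84, SE 0.53, adjusted p = 0.584, edgeR). Normalized FPKM, the scale of every level here, is the same quantity with each library's reads scaled by TMM, a correction for differences in composition between libraries. Counts cover the whole gene, including exons outside the deleted part. *Fasn*, the fatty acid synthase and a known ChREBP target, was at 13.6, 16.3 and 14.9 in KPF and at 235, 193 and 22.3 in WPF, so WPF replicate 4 lay near the KPF libraries. Hepatocyte markers summed to between 37127 and 49498 in KPF and to between 47839 and 80689 in WPF. Of these 5, 0 were called, against 9.81% of all tested genes in either direction. *Alb* made up most of every sum, and the 5 log2 fold changes ran from -0.98 (*Ttr*) to 0.30 (*Tat*). Stellate and fibroblast markers summed to between 23.4 and 152 in KPF and to between 18.6 and 23.9 in WPF. *Des* made up most of the highest sum, that of KPF replicate 2, and without *Des*, a sum taken after the values were seen, the other 6 markers came to 40.8, 20.4 and 20.7 in KPF and to 15.8, 19.5 and 21.9 in WPF. All 5 placental markers had no read in any library. Bulk RNA does not tell fewer cells of a type from less RNA per cell.

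*Igfbp2* and *Igfbp1* were the genes of the axis called lower in KPF, at 2 of 10 against 3.98% of all tested genes, and none of the 10 was called higher against 5.83% (9.81% of all tested genes in either direction). Called means that the unadjusted p was under 0.05 and the difference 1.5-fold or more. With edgeR's quasi-likelihood test, none of the 10866 genes had an adjusted p under 0.05, while 10.8% had an unadjusted p under 0.05. DESeq2 gave 156 genes at that adjusted threshold. The median log2 fold change of the 10 genes was -0.01, beside 0.02 over all tested genes. The groups did not overlap for 2 of the 10 against 15.7% of all tested genes, *Igf1* being higher in KPF (7.55% of all tested genes) and *Igfbp2* lower (8.15%).

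**Figure D1:**
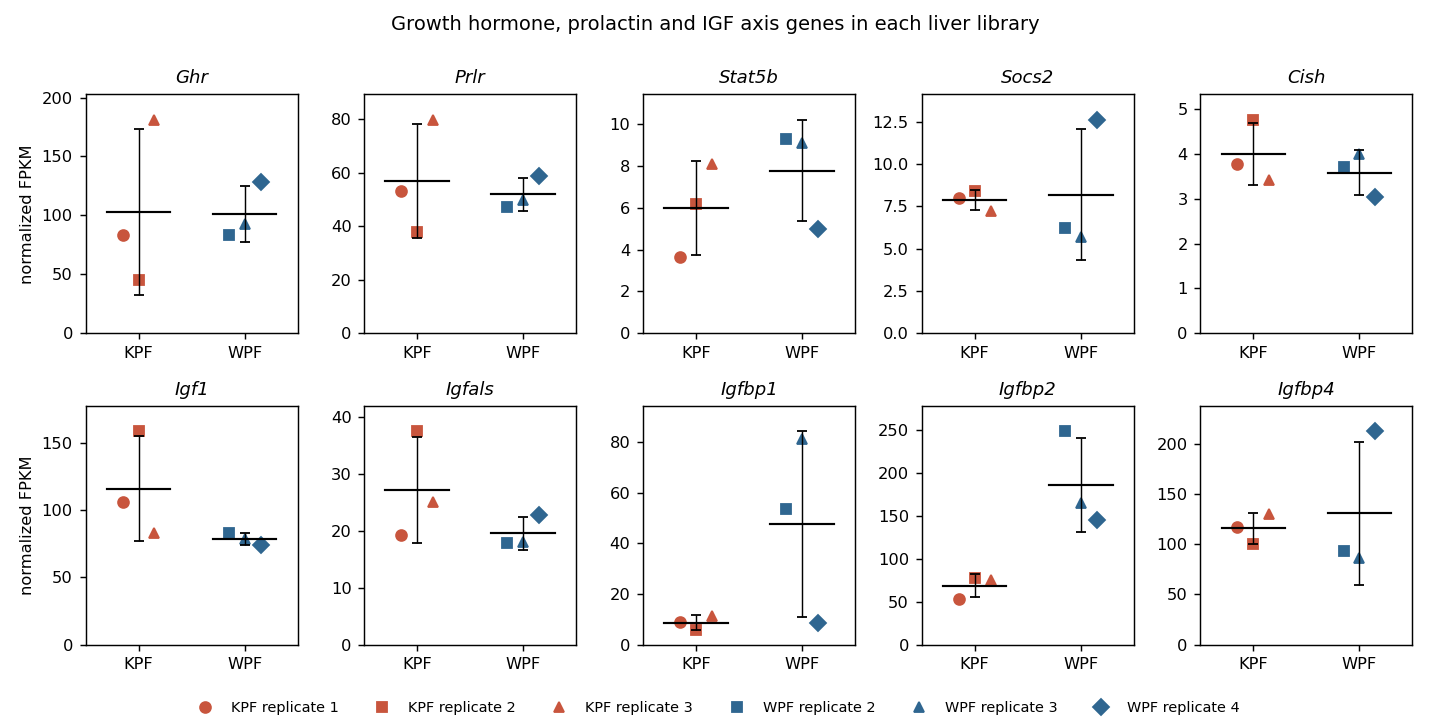
Level of each of the 10 genes in normalized FPKM (vertical axes, each from 0) in the 3 KPF and 3 WPF libraries, with 1 marker per library, the group mean as a horizontal line and the SD as an error bar. *Igfbp2* was lower in every KPF library, between 53.2 and 77.3, than in every WPF library, between 145 and 249, and WPF replicate 4 of *Igfbp1*, at 8.37, lay among the KPF libraries.

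By level, the order over all 6 libraries was *Igfbp2*, *Igfbp4*, *Ghr*, *Igf1*, *Prlr*, *Igfbp1*, *Igfals*, *Socs2*, *Stat5b* and *Cish*, at ranks from 285 to 5762 among the tested genes. Each neighbouring pair in this order overlapped in its range over the 6 libraries except *Igfals* and *Socs2*. *Igfals* did not go below 17.8 normalized FPKM, and *Socs2* did not exceed 12.6. The receptors and secreted products were on average at higher transcript levels than the genes that relay or brake the signal, and the 3 genes with means under 10 in both groups were *Stat5b*, *Socs2* and *Cish*.

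The receptors did not pass the test. *Ghr*, which also encodes the circulating GH-binding protein in the mouse, was at 83.3, 45.4 and 181 normalized FPKM in KPF replicates 1, 2 and 3, and at 83.1, 92.5 and 128 in WPF replicates 2, 3 and 4. KPF held both the highest and the lowest library, and the group means, 103 ± 70.2 and 101 ± 23.6 (SD, n = 3), were closer than the spread. The log2 fold change was 0.03 (SE 0.50, 95% interval -1.12 to 1.18, adjusted p = 0.983, edgeR), and without KPF replicate 3 it was -0.65. *Prlr*, the receptor for prolactin and placental lactogens, was at 53.2, 38.0 and 79.8 in KPF and at 47.2, 50 and 58.8 in WPF. Its extremes fell in the same libraries as those of *Ghr*, KPF replicate 3 being the highest and KPF replicate 2 the lowest. The difference was 0.13 on the log2 scale (SE 0.33, interval -0.63 to 0.90, adjusted p = 0.896), and without KPF replicate 3 it was -0.19. The interval of *Ghr* leaves room for a change of more than 1.5-fold in either direction, so that these libraries do not show the receptors to be alike. The ratio of *Ghr* to *Prlr* was 1.56, 1.19 and 2.27 in KPF and 1.76, 1.85 and 2.17 in WPF (exact two-sided permutation test, p = 0.5). Their isoforms were not counted separately. The study reported no effect of the ChREBP deficiency on prolactin in serum.

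*Stat5b*, the main STAT5 form of GH signalling in liver, was at 3.64, 6.20 and 8.10 normalized FPKM in KPF and at 9.28, 9.09 and 4.97 in WPF. The groups overlapped, WPF replicate 4 lying within the KPF range, and the log2 fold change was -0.38 (SE 0.36, interval -1.21 to 0.45, adjusted p = 0.716, edgeR). Its close paralog *Stat5a*, which lies 8626 bases away, was at 2.21, 2.14 and 2.66 in KPF and at 2.70, 2.82 and 1.34 in WPF. The *Stat5b* to *Stat5a* ratio was 1.65, 2.90 and 3.04 in KPF and 3.44, 3.22 and 3.71 in WPF. These ratios did not overlap between groups (exact two-sided permutation test, p = 0.1, the smallest that 3 against 3 can give). The 2 paralogs are similar in sequence, and how reads shared by them were assigned is not given in the sources used here.

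*Socs2* and *Cish*, the feedback inhibitors that STAT5 induces, did not pass the test either. *Socs2* was at 8, 8.39 and 7.23 normalized FPKM in KPF and at 6.22, 5.71 and 12.6 in WPF. The KPF libraries sat between the low and the high WPF libraries, and the log2 fold change of -0.06 (SE 0.33, interval -0.83 to 0.72, adjusted p = 0.962, edgeR) became 0.39 without WPF replicate 4. *Cish* was at 3.78, 4.76 and 3.43 in KPF and at 3.71, 4 and 3.03 in WPF, on 226 to 361 reads. This was the narrowest interval of the axis, at 0.16 (SE 0.21, interval -0.34 to 0.65, adjusted p = 0.805). Upper and lower bounds correspond to 1.57 and 0.792 times the WPF level. *Cish* shares bases with *Gm17040*, an antisense gene with at most 19 reads in a library.

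Of the 22 other genes of the JAK-STAT relay and its brakes, 18 were tested, and 0 were called, against 9.81% of all tested genes in either direction. Their median log2 fold change was -0.07. The smallest p values belonged to *Jak1*, a kinase of cytokine receptors (-0.26, SE 0.18, p = 0.181, edgeR, exact permutation p = 0.1), and *Pias3*, an inhibitor of STAT proteins (-0.40, SE 0.27, edgeR p = 0.183, exact permutation p = 0.3). *Ptpn6*, a phosphatase that acts on JAK kinases, was at 0.27. *Jak2*, the kinase of GHR and PRLR, was at 2.51, 2.10 and 2.05 normalized FPKM in KPF and at 2.30, 2.93 and 1.91 in WPF. The ligands and releasing factors were not tested. None of the 12 genes passed the expression minimum, 8 of them had 0 reads in all 6 libraries, and *Gh* had at most 3 reads in a library.

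The 2 products of hepatic GH action, *Igf1* and *Igfals*, were at higher mean levels in KPF without passing the test. *Igf1* (ENSMUSG00000020053, chr10:87694127-87772904, plus strand, GRCm39) was at 106, 159 and 83.1 normalized FPKM in KPF and at 82.8, 78.6 and 74.1 in WPF. All KPF libraries were above all WPF libraries, although KPF replicate 3 and WPF replicate 2 were nearly level. WPF was tight, at 78.5 ± 4.36 (SD, n = 3), and KPF wide, at 116 ± 39.2. The log2 fold change was 0.57 (SE 0.31, interval -0.15 to 1.28, p = 0.105, adjusted p = 0.535, edgeR; exact two-sided permutation p = 0.1), and leaving out single libraries gave values from 0.26 without KPF replicate 2, its highest library, to 0.76 without KPF replicate 3, the only omission under which it was called. *Igf1os*, which overlaps *Igf1* on the opposite strand by 5117 bases, had at most 283 reads in a library, and as the stated library preparation does not mark strand the 2 cannot be fully separated. *Igfals*, the acid-labile subunit that holds IGF1 in its large circulating complex, was at 19.3, 37.6 and 25.1 in KPF and at 17.8, 18.0 and 22.9 in WPF. WPF replicate 4 was above KPF replicate 1, and the log2 fold change was 0.48 (SE 0.29, interval -0.20 to 1.16, adjusted p = 0.575), and it was 0.18 without KPF replicate 2 and 0.68, and called, without KPF replicate 1. *Cish*, *Igf1* and *Igfals* were each highest in KPF replicate 2. The *Igf1* to *Igfals* ratio was 5.51, 4.25 and 3.31 in KPF and 4.66, 4.37 and 3.24 in WPF (exact two-sided permutation test, p = 0.9).

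*Igfbp2* (ENSMUSG00000039323, chr1:72863662-72891633, plus strand, GRCm39), a binding protein made mainly by the liver in adults, was at 53.2, 77.3 and 75.1 normalized FPKM in KPF and at 249, 165 and 145 in WPF. The groups did not overlap, and the lowest WPF library was at 145 against 77.3 for the highest KPF library. The means were 68.5 ± 13.4 in KPF and 186 ± 55.2 in WPF (SD, n = 3), a 2.72-fold difference. The log2 fold change was -1.44 (SE 0.31, interval -2.16 to -0.73, p = 0.00173, adjusted p = 0.415, edgeR; exact two-sided permutation p = 0.1). It was rank 36 by p among the tested genes. The gene was called in all 14 alternative settings, with log2 fold changes between -1.60 and -1.18, and the adjusted p lay between 0.00133 (DESeq2) and 0.823. It rested on 1017 to 5255 reads per library.

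*Igfbp1* (ENSMUSG00000020429, chr11:7147782-7152546, plus strand, GRCm39), the binding protein that insulin represses, was at 8.99, 5.58 and 11.4 normalized FPKM in KPF and at 53.6, 81.1 and 8.37 in WPF. WPF replicates 2 and 3 were high, and WPF replicate 4 lay within the KPF range. The means were 8.65 ± 2.91 in KPF and 47.7 ± 36.7 in WPF (SD, n = 3), a 5.52-fold difference. The log2 fold change was -2.46 (SE 0.73, interval -4.16 to -0.77, p = 0.0103, adjusted p = 0.430, edgeR; exact two-sided permutation p = 0.3). Without WPF replicate 4 it was -2.97, and without WPF replicate 3 it was -1.84 and still called. WPF replicate 4 was also the WPF library in which *Fasn* was near the KPF level.

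*Igfbp4*, which binds IGF1 and is made in liver and other tissues, was at 117, 100 and 130 normalized FPKM in KPF and at 93.2, 86.8 and 213 in WPF. WPF held both the lowest and the highest library, as for *Socs2*, and in both genes these were replicates 3 and 4. The log2 fold change was -0.18 (SE 0.39, interval -1.09 to 0.73, adjusted p = 0.880, edgeR), and it was 0.35 without WPF replicate 4.

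**Figure D2:**
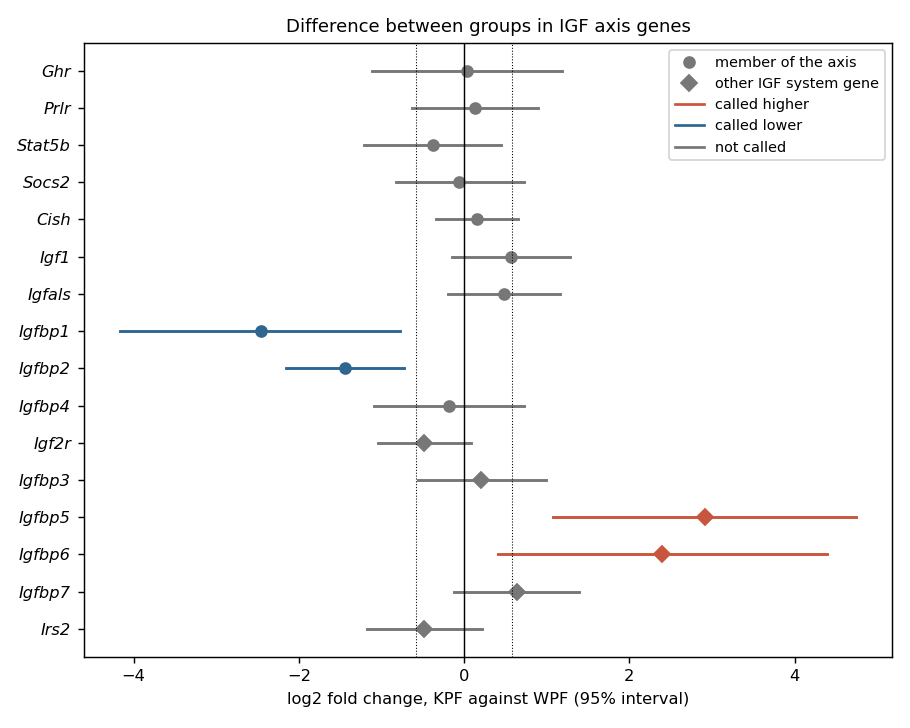
Log2 fold change of KPF against WPF (horizontal axis) from edgeR with its 95% interval for the 10 genes of the axis and the 6 tested other IGF system genes; dotted lines mark 1.5-fold, and colours mark genes called higher, lower or not called. *Igfbp1* (-2.46) and *Igfbp2* (-1.44) were called lower, and *Igfbp5* (2.91) and *Igfbp6* (2.40) were called higher.

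Transcript levels per exon length were summed over *Igfbp1* to *Igfbp6* to show how the binding proteins shared the total. The sum was 193, 209 and 226 normalized FPKM in KPF and 401, 339 and 375 in WPF, without overlap. *Igfbp2* made up 27.6%, 37.1% and 33.2% of it in KPF and 62.1%, 48.6% and 38.7% in WPF. *Igfbp1* made up 4.67%, 2.68% and 5.02% in KPF and 13.4%, 23.9% and 2.23% in WPF. *Igfbp4* was the largest part in all 3 KPF libraries, at 60.7%, 48.0% and 57.6%, and in WPF replicate 4, at 56.8%, whereas in WPF replicates 2 and 3 it held 23.3% and 25.6%. The sum of WPF replicate 4 was thus between those of the other WPF libraries, but with more *Igfbp4* and less *Igfbp1*. The ratio of *Igf1* to *Igfbp2*, which no scaling of the libraries changes, was 2, 2.06 and 1.11 in KPF and 0.332, 0.477 and 0.511 in WPF. All KPF ratios were above all WPF ratios, with a 3.83-fold difference. This separation was fixed beforehand, because *Igf1* was higher and *Igfbp2* lower in every KPF library than in every WPF library. The exact two-sided permutation p of 0.1, the smallest possible, could therefore not come out otherwise. The ratio restates the values of the 2 genes and is no further result. These are transcript ratios, and no IGF1 or binding protein was measured.

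**Figure D3:**
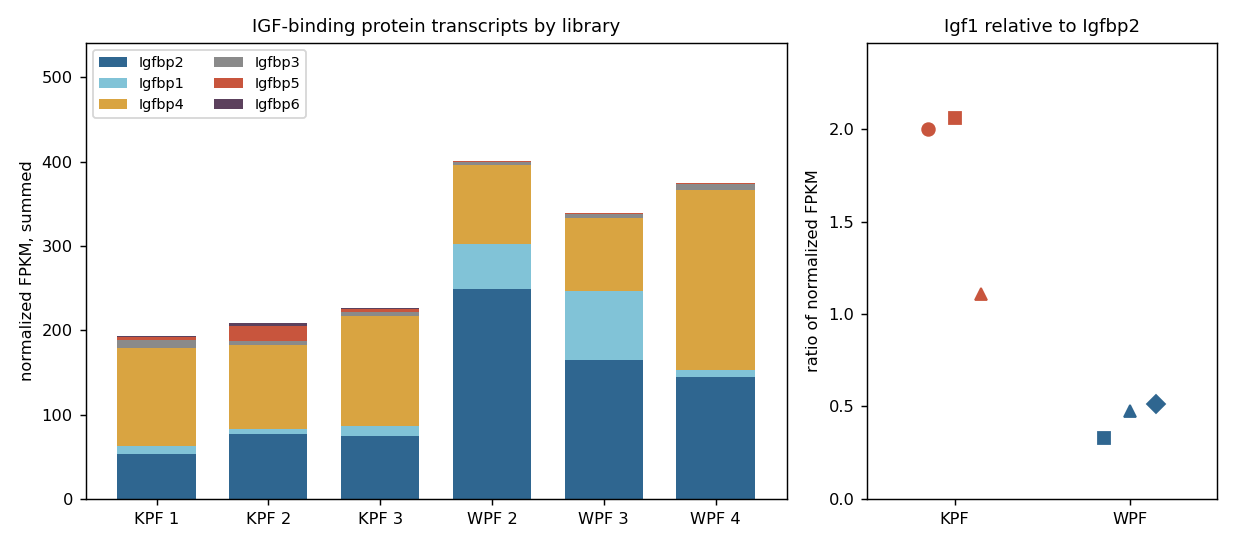
Left, normalized FPKM of *Igfbp1* to *Igfbp6* stacked for each library; right, the ratio of *Igf1* to *Igfbp2* in each library (circle replicate 1, square replicate 2, triangle replicate 3, diamond replicate 4). The stacks reached 193 to 226 in KPF and 339 to 401 in WPF, and the ratio was 1.11 or more in KPF and 0.511 or less in WPF. The ratio had to separate the groups, because *Igf1* and *Igfbp2* each did so in opposite directions.

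Of the 17 other IGF system genes, 6 were tested, of which 2 were called higher and 0 lower, against 5.83% and 3.98% of all tested genes. Their median log2 fold change was 0.43. *Igfbp5*, a binding protein of mesenchymal cells, was at 3.31, 17.8 and 3.74 normalized FPKM in KPF and at 0.554, 0.735 and 1.99 in WPF. Every KPF library was above every WPF library (log2 fold change 2.91, SE 0.79, p = 0.00665, adjusted p = 0.430, edgeR, exact permutation p = 0.1), and without KPF replicate 2 the value was 1.67. *Igfbp5* lies 5457 bases from *Igfbp2* on the opposite strand, and the neighbours were called in opposite directions. *Igfbp6* was at 1.30, 3.71 and 0.613 in KPF and at 0.315, 0.640 and 0.107 in WPF on 2 to 46 reads (2.40, SE 0.86, p = 0.0243, adjusted p = 0.430, edgeR, exact permutation p = 0.2). Its WPF mean of 0.354 was under the expression minimum of 1. *Igfbp6* thus entered the test through KPF, and a gene that enters this way is more easily called higher. It was no longer called without KPF replicate 2 (1.43), without WPF replicate 2 (2.34) or without WPF replicate 4 (1.93), in 1 of the limma fits, on log2(FPKM + 1) (0.91), or with the replicate number as a block (1.77).

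The stellate marker *Des* was at 14.5, 131 and 2.72 in KPF and at 2.82, 2.37 and 1.98 in WPF, and *Igfbp5*, *Igfbp6* and *Des* were each highest in KPF replicate 2. Of the 6 other stellate and fibroblast markers, none was highest in that library, 5 were highest in KPF replicate 1 and 1 (*Lrat*) in WPF replicate 3. Of the 6 tested markers of the list, 2 (*Des* and *Reln*) were called higher, against 5.83% of all tested genes. The WPF mean of *Reln*, 0.943, was under the expression minimum, so *Reln* too entered the test through KPF. The part of stellate cells and fibroblasts in the calls of *Igfbp5* and *Igfbp6* was not tested. *Igfbp3*, which lies 3539 bases from *Igfbp1* on the opposite strand and carries most IGF1 in blood, was at 8.98, 4.10 and 5.10 in KPF and at 4.11, 4.98 and 6.56 in WPF (log2 fold change 0.21). *Igf1r*, the receptor of IGF1, was below the minimum, between 0.110 and 0.331, and *Igf2* had at most 2 reads in a library.

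The GH-responsive transcripts of the liver were described next by lists drawn up from general knowledge. Of 9 GH-STAT5 response genes, all tested, 1 was called higher and 0 lower (5.83% and 3.98% of all tested genes), with a median log2 fold change of 0.22. It was *Bcl6*, a repressor that is known to oppose STAT5 and that GH lowers, at 0.937, 1.9 and 1.08 normalized FPKM in KPF and at 0.784, 0.659 and 0.762 in WPF (0.83, SE 0.33, p = 0.0396, adjusted p = 0.450, edgeR, exact permutation p = 0.1). All KPF libraries were above all WPF libraries. The WPF mean of *Bcl6*, 0.735, was under the expression minimum of 1, and its KPF mean was 1.3. *Bcl6* thus entered the test through KPF, as *Igfbp6* and *Reln* did. A gene that enters this way is more easily called higher, and its separation of the groups is no added support. The call of *Bcl6* was lost without KPF replicate 2 (0.45) and without any of the WPF replicates (0.75 to 0.88), and also with libraries scaled by their totals alone (0.71) and in both limma fits (0.32 and 0.57). The same gene was the only one called among the 12 tested of 19 male-biased genes, whose median was 0.21. Over all tested genes, 9.81% were called in either direction.

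Sex-biased genes follow the pattern of GH secretion, which is pulsatile in males and near continuous in females. Of the 19 female-biased genes, 18 were tested, 2 were called higher and 2 lower (5.83% and 3.98% of all tested genes), and the median was -0.40. *Cyp2a4*, a steroid hydroxylase, was at 228, 244 and 333 normalized FPKM in KPF and at 591, 576 and 750 in WPF. The groups did not overlap (log2 fold change -1.25, SE 0.28, p = 0.00225, adjusted p = 0.415, edgeR, exact permutation p = 0.1), and it was called in all 14 alternatives. *Cyp39a1*, an oxysterol hydroxylase, was at 1.23, 2.41 and 1.5 in KPF and at 5.16, 3.10 and 3.42 in WPF (-1.18, SE 0.35, p = 0.00995, adjusted p = 0.430, exact permutation p = 0.1). In the other direction, *Cyp2b13* was at 16.6, 90.6 and 23.4 in KPF and at 7.43, 7.97 and 17 in WPF (2.01, SE 0.68, p = 0.0188, adjusted p = 0.430, exact permutation p = 0.2). Its highest library was again KPF replicate 2, without which the log2 fold change was 0.88 and not called, and it was also not called without WPF replicate 2 (1.80) or WPF replicate 3 (1.83), or in the limma fits (1.49 and 1.57). *Sult3a1*, a sulfotransferase, was at 88.6, 55.7 and 115 in KPF and at 37.0, 43.3 and 61.8 in WPF (0.87, SE 0.33, p = 0.0325, adjusted p = 0.434, exact permutation p = 0.2), and 4 of the 6 libraries each ended its call when left out (0.61 to 0.85), as did library totals (0.69) and both limma fits (0.70 and 0.72). *Cyp2a4*, *Cyp2b13* and *Sult3a1* have near-identical relatives, and reads shared with them make these values uncertain. The list thus held calls in both directions.

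**Figure D4:**
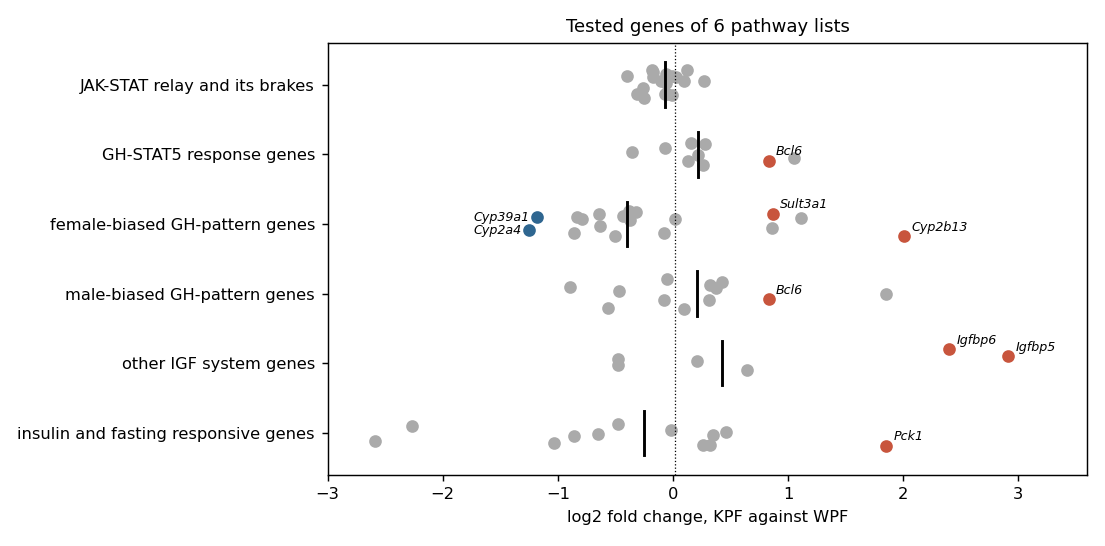
Log2 fold change of KPF against WPF (horizontal axis) for the tested genes of 6 lists, 1 point per gene, with called genes coloured and named, the list median as a bar and the median of all tested genes (0.02) as a dotted line. The JAK-STAT list lay between -0.40 and 0.27 with no called gene, and the insulin and fasting list held both the lowest value, *G6pc* at -2.59, and *Pck1* at 1.85.

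Because *Igfbp1* and *Igfbp2* are known to respond to insulin and fasting, 12 other genes with that response were read beside them. All 12 were tested, 1 was called higher and 0 lower (5.83% and 3.98% of all tested genes), and the median was -0.25. *Pck1*, the enzyme that commits carbon to gluconeogenesis, was at 78.7, 509 and 95.1 normalized FPKM in KPF and at 58.5, 38.2 and 92.8 in WPF (1.85, SE 0.75, p = 0.0409, adjusted p = 0.453, edgeR, exact permutation p = 0.2). KPF replicate 2 alone was far above the rest, and without it the log2 fold change was 0.46 and not called. The call of *Pck1* was also lost without WPF replicate 2 (1.80) and without WPF replicate 3 (1.59), with library totals (1.72) and in both limma fits (1.26 and 1.27).

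The next 3 genes of this list were chosen after their values were seen. *G6pc*, the last enzyme of glucose release, was at 2.24, 5.50 and 23.2 in KPF and at 47.0, 138 and 1.89 in WPF (-2.59, SE 1.34, p = 0.0906, edgeR, exact permutation p = 0.5). *Fgf21*, a hepatic hormone, was at 7, 0 and 0.512 in KPF and at 20.8, 14.2 and 1.37 in WPF (log2 fold change -2.27, SE 1.39, adjusted p = 0.576, edgeR). In both genes, as in *Igfbp1*, WPF replicates 2 and 3 were the highest, and WPF replicate 4 was among or below the KPF libraries. *Srebf1*, which insulin induces, was at 3.86, 20.8 and 14.8 in KPF and at 31.3, 25.8 and 23.7 in WPF (-1.03, SE 0.54, p = 0.0929, exact permutation p = 0.1), and there WPF replicate 4 was with its group. Feeding state and insulin of these 6 dams at collection are not in the labels. For the KPF and WPF groups as a whole, the study measured serum insulin, blood glucose and HOMA-IR, and reported less insulin resistance in KPF.

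**Figure D5:**
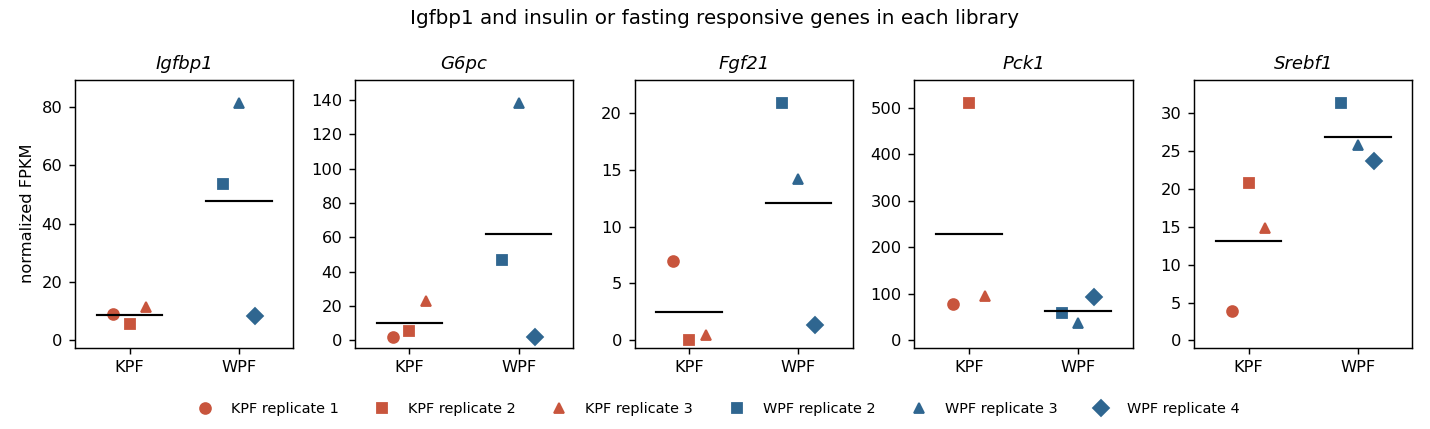
Normalized FPKM (vertical axes) of *Igfbp1* and 4 insulin or fasting responsive genes, with 1 marker per library and group means as lines. WPF replicate 4 lay within the KPF range for *Igfbp1* (8.37) and *Fgf21* (1.37) and just below it for *G6pc* (1.89), and KPF replicate 2 stood alone for *Pck1* (509).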

How the data were processed

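Liver poly(A) RNA of 3 KPF and 3 WPF dams was sequenced by the study as 1 library per dam. The authors deposited raw counts per gene, with exonic length and FPKM beside them. The deposited FPKM equals the count scaled by exonic length and by the library's counted reads, to within 0.005. The submitters' processing notes name cutadapt 1.9.1, HISAT2 2.2.1, HTSeq 0.6.1, DESeq2 and the build GRCm39. Coordinates of genes are those of the deposited table, while promoters are from RefSeq on GRCm38.p6, and the builds were not mixed. GENCODE M21 gave symbols for 52073 of 56691 gene IDs, and 4618 had none.

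The main comparison, KPF against WPF, used the quasi-likelihood test of edgeR 4.0.16 in R 4.3.3 on the counts, with TMM factors from 0.888 to 1.18, over 10866 genes whose mean FPKM was 1 or more and with Benjamini-Hochberg adjustment over all of them. SE and 95% intervals come from the same fit, and genes below the minimum have no adjusted p. Single genes were also tested by an exact two-sided permutation test over the 6 libraries, which cannot go below 0.1. Normalized FPKM was computed from counts, TMM-scaled library sizes and exonic length. Alternatives used DESeq2 1.42.0, limma 3.58.1 on log2(FPKM + 1) and log2(FPKM + 0.1), other scalings and filters, a replicate block, and each library left out. The fits were tested on simulated data.

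The genes of the axis and the lists were chosen with earlier results of these data known. All 10 genes are named, and from each list the called genes or, where none was called, up to 4 with the smallest p. The values of 1 such gene are not reported here. Replicate numbers 2 and 3 occur in both groups, but the deviations of same-numbered libraries from their group means did not correlate (0.066 and -0.045), so the numbers were not used as pairs. Libraries of the same group differed beyond sampling noise, with chi-square per gene of 35.5 or more. Counting error is small for the axis genes, each of which had 95 reads or more in every library. Whether the dams were caged or processed together is not given in the sources used here.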

Additional observations from a re-analysis of the deposited data

How the results depend on the processing

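*Igfbp1* and *Igfbp2* were called lower in all 14 alternatives, between -3.04 and -1.84 and between -1.60 and -1.18. The cause of the following changes was not tested. *Ghr* changed sign with library totals (-0.16), limma with a pseudocount of 1 (-0.29) or 0.1 (-0.30), and no expression filter (-0.03), and between -0.65 and 0.38 with single libraries left out (-0.65 without KPF replicate 3, -0.09 without WPF replicate 2, -0.03 without WPF replicate 3). *Prlr* did so with library totals (-0.03), both limma fits (-0.05) and without KPF replicate 3 (-0.19), *Socs2* without WPF replicate 4 (0.39) and without KPF replicate 3 (0.00; range -0.26 to 0.39), and *Igfbp4* without WPF replicate 4 (0.35; range -0.40 to 0.35). No other gene of the axis changed sign.

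With the replicate number as a block, *Socs2* was at 0.39 and *Igfbp4* at 0.34, 1 gene of the axis (*Igfals*, 0.78) was called higher instead of 0, and 16 pathway genes were called higher and 8 lower instead of 6 and 2. The labels do not say whether the numbers pair the dams, and all called genes of the axis were called under the block too.

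Over all tested genes, 634 were called higher. The number was 371 with library totals, 238 and 257 with limma (pseudocount 1 and 0.1), 1576 with no expression filter and 255 at a minimum mean FPKM of 5, and 324 to 910 with single libraries left out. The 432 called lower became 716, 681 (limma, 0.1), 910 and 205 under the same settings, and 246 to 709. An adjusted p under 0.05 was reached by 0 genes in the main fit, 156 with DESeq2, 1 with limma (0.1), 286 with no expression filter and 0 to 5 with single libraries left out (5 without WPF replicate 4). Genes of the axis called higher numbered 0 to 1, and pathway genes 1 to 9 higher and 2 to 6 lower, with single libraries left out. Pathway genes called higher were 3 with library totals, 2 and 3 with limma, 14 with no filter and 3 at FPKM 5, and those called lower were 4 with library totals, DESeq2 and both limma fits, 9 with no filter and 1 at FPKM 5. Library totals moved the median log2 fold change of all genes from 0.02 to -0.12, limma to -0.09 and -0.12, and the share of calls that were higher from 59.5% to 34.1%, 30.1% and 27.4%.

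With 3 dams a group, the intervals of *Ghr*, *Prlr*, *Socs2* and *Igfbp4* include 1.5-fold changes in both directions. The edgeR p-values set each difference against the spread between these dams, which the fit estimates partly from the other tested genes. Depth does not limit the genes of the axis, but *Igfbp6* had at most 46 reads.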

Other observations

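Among other genes of the IGF system that lay below the expression minimum, *Htra1*, a protease that cleaves binding proteins, was at 0.402, 0.405 and 0.101 normalized FPKM in KPF and at 0.0608, 0.0495 and 0.0206 in WPF, on 1 to 13 reads. *Stc2*, the secreted inhibitor of a protease that frees IGF1 from IGFBP4, was at 0.839, 0.364 and 0.0564 in KPF and at 0.0169, 0.151 and 0.0803 in WPF, on 1 to 45 reads. *Hsd3b5*, a male-biased steroid enzyme, was at 0.748, 0.868 and 1.38 in KPF and at 0.170, 0 and 0.345 in WPF, on at most 22 reads. These genes have no adjusted p and were chosen after their values were seen. Each is measured on too few reads for more than these values.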
